A study of Homo sapiens with 9 samples.

Results

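This account covers the protein-coding genes whose transcripts carried RNA editing sites in the 3′ UTR when GPATCH8 or SUGP1 was tethered to an editing enzyme in 293T cells, a line derived from human embryonic kidney. Both proteins carry a G-patch domain and are known from work on splicing with SF3B1, a protein that recognises the branchpoint of introns. Each was joined to the catalytic part of ADAR, a Drosophila enzyme in a hyperactive form that deaminates adenosine, and the study asked which RNAs each contacts. All libraries are labelled as SF3B1 wild type. Cells had been transfected 24 hours earlier with GPATCH8-ADAR (2 libraries, run 1), with ADAR-SUGP1 (2 libraries, run 2) or with a non-targeting MCP and ADAR control fusion (2 libraries in each run), and were sorted for GFP; 1 further library in run 2 came from untransfected cells. The deposited tables hold 1 merged list of sites for each of the GPATCH8-ADAR and ADAR-SUGP1 fusions, left after endogenous and control editing was removed and only sites found in both replicates were kept. Control and untransfected cells thus have no values of their own here.

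A gene was included when the 3′ UTR counts of its protein-coding transcripts summed to 1 or more with either fusion. This held for 261 of the 1348 protein-coding genes listed, 101 with GPATCH8-ADAR and 177 with ADAR-SUGP1, of which 17 were found with both. These are 20.3% of the 498 protein-coding genes listed for GPATCH8-ADAR (16.8 to 24.1, a 95% interval by the exact binomial method) and 17.8% of the 995 listed for ADAR-SUGP1 (15.5 to 20.3). Just outside the threshold lay the other 397 and 818 listed genes, with 0 sites in the 3′ UTR, and just inside it 76 and 150 genes with 1 site. The members were chosen by these same 3′ UTR counts, which are therefore described and not tested. Each fusion has 1 list, genes are not replicates, and no p-value is given. Intervals cover counting error over genes only. The fusions come from different sequencing runs, and an effect of the fusion and one of the run cannot be told apart in any comparison that follows.

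The 3′ UTR is the stretch of a messenger RNA between the stop codon and the poly(A) tail. It is not translated, and it is where many microRNAs and RNA-binding proteins act on stability, localisation and translation. It is retained after splicing, whereas introns are present only in RNA that has not yet been spliced or in released lariats. In this assay, TRIBE-seq, the deaminase turns adenosines near its partner's contact into inosines, which are read as guanosines. Human 3′ UTRs often contain inverted Alu repeats that pair into duplexes, and the cell's own ADAR enzymes are known to edit such duplexes. The tables give site counts by transcript without positions, editing levels or read coverage, so no edited sequence can be shown and the depth behind each site is unknown. Expression and 3′ UTR length, which bear on the chance of finding a site, were not measured here.

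GPATCH8-ADAR left 141 sites in the 3′ UTRs of its 101 genes, and 7 genes held 3 or more. NDUFV3, which encodes an accessory subunit of mitochondrial complex I, had 7 sites, on ENST00000340344.4. POLR1A, the largest subunit of RNA polymerase I, had 5 on ENST00000263857.6. PEX26, which anchors the peroxisomal import machinery in the membrane, had 4 on ENST00000329627.7. None of these transcripts carried a site in any other region. RP11-192H23.4, a protein-coding entry without a gene name, had 4 sites on ENST00000534850.1. TTF2, an ATP-dependent transcription termination factor, had 3 sites in the 3′ UTR and 3 in introns of ENST00000369466.4. The zinc finger gene ZNF789 had 3 sites on ENST00000483089.1, and the transmembrane protein gene TMEM120B had 2 on ENST00000342607.6 and 1 on ENST00000449592.2. TMEM120B was the 1 gene of the 101 with 3′ UTR sites on several transcripts.

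These 7 genes held 29 of the 141 sites (20.6%, 95% exact binomial interval 14.2 to 28.2), and NDUFV3 alone held 4.96%. A further 18 genes had 2 sites. They include CASP8, the initiator caspase of death receptors, GAA, the lysosomal acid alpha-glucosidase, GART, a purine synthesis enzyme, ATG9A, a lipid scramblase of autophagy, PLA2G6, a phospholipase, SMPD4, a sphingomyelinase, and LIN54, a DNA-binding subunit of the DREAM complex. The 101 genes averaged 1.40 ± 0.917 sites (SD over genes), with a median of 1, and without NDUFV3 it was 1.34 ± 0.728 (n = 100).

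ADAR-SUGP1 left 211 sites in the 3′ UTRs of 177 genes, spread more thinly. NDUFS1, the iron-sulphur core subunit of complex I, had 5 sites on ENST00000233190.6. LYRM7, an assembly factor of respiratory complex III, had 4 on ENST00000379380.4, and PPP1R12B, a targeting subunit of myosin phosphatase, had 4 on ENST00000608999.1. These 3 genes held 13 of the 211 sites (6.16%, 3.32 to 10.3), and none of their listed transcripts had a site elsewhere. No gene had 3 sites, and 24 had 2. Among the latter are DDX5, an RNA helicase, SREBF1, a transcription factor of lipid synthesis, DFFA, the inhibitor of the apoptotic nuclease, NMNAT1, the nuclear NAD synthesis enzyme, TRMU, a mitochondrial tRNA thiolase, and RPL15, a protein of the large ribosomal subunit. The 177 genes averaged 1.19 ± 0.541 sites (SD over genes), with a median of 1. Genes with 2 or more sites made up 25 of the 101 GPATCH8-ADAR genes (24.8%, 16.7 to 34.3) and 27 of the 177 ADAR-SUGP1 genes (15.3%, 10.3 to 21.4), and these intervals overlap.

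**Figure D1:**
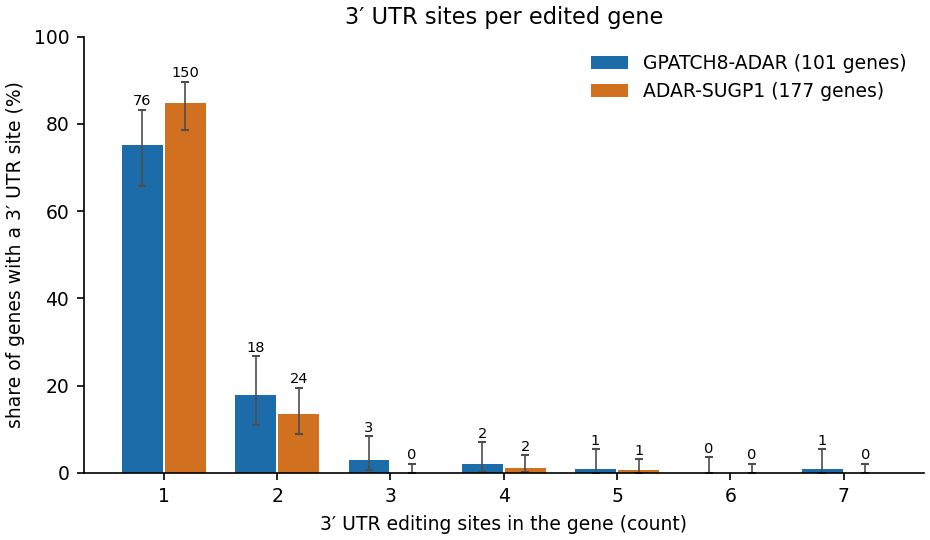
Share of genes with a 3′ UTR site (vertical axis, %) by the number of 3′ UTR sites in the gene (horizontal axis, count), for GPATCH8-ADAR (101 genes, blue) and ADAR-SUGP1 (177 genes, orange); error bars are 95% exact binomial intervals and the numbers above them are genes. Genes with 1 site make up 75.2% and 84.7%, and the GPATCH8-ADAR list reaches 7 sites in NDUFV3.

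The fusions shared 17 genes, which are 16.8% of the GPATCH8-ADAR genes (10.1 to 25.6) and 9.60% of the ADAR-SUGP1 genes (5.70 to 14.9). For genes with an intronic site, the 107 shared ones were 28.9% of 370 and 17.0% of 628. Over the whole lists, 29.1% of the protein-coding GPATCH8-ADAR genes were also listed for ADAR-SUGP1 and 14.6% of the ADAR-SUGP1 genes for GPATCH8-ADAR. The 3′ UTR shares lay below those of introns, and their intervals overlap the intronic ones, 24.3 to 33.8 and 14.2 to 20.2. Of the genes with a 3′ UTR site that were listed for the other fusion at all, 17 of 24 from GPATCH8-ADAR (70.8%, 48.9 to 87.4) and 17 of 25 from ADAR-SUGP1 (68.0%, 46.5 to 85.1) had a 3′ UTR site there too. In all 17 shared genes the 3′ UTR sites were counted on the same transcript with both fusions. For 12 of these genes each fusion had 1 listed transcript, which left no other listed transcript to carry the sites. How transcripts were chosen for listing is not given in the sources used here, so the match is not read as agreement between the fusions. Whether they are the same positions cannot be told.

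Respiratory and polymerase genes led this shared set. NDUFV3 had 7 sites in the GPATCH8-ADAR list and 1 in the ADAR-SUGP1 list, and NDUFS1 had 2 and 5. POLR1A had 5 and 2, and it and NDUFS1 were the 2 genes with at least 2 sites with each fusion. NDUFV3 was also the 1 shared gene with transcript-body sites outside the 3′ UTR, 4 in introns of ENST00000460259.1 with ADAR-SUGP1. The other 16 had their transcript-body sites in the 3′ UTR alone with both fusions.

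Several of the remaining shared genes act in transcription by RNA polymerase II. RPAP2, a phosphatase of the polymerase's C-terminal domain, had 1 site with GPATCH8-ADAR and 2 with ADAR-SUGP1. TADA2A, an adaptor of histone acetyltransferase complexes, had 1 and 2. DR1, which represses the TATA-binding protein, and GTF2H3, a subunit of TFIIH, had 1 with each. Outside transcription, ADRBK2 (current symbol GRK3), a kinase that desensitises G protein-coupled receptors, had 2 and 1, and H6PD, which starts the pentose phosphate pathway in the endoplasmic reticulum, had 1 and 2. The genes with 1 site each were, besides DR1 and GTF2H3, the mitochondrial ribosomal protein gene MRPL32, the mitochondrial aminopeptidase gene XPNPEP3, the ubiquitin ligase gene RNF149, LRCH3, TMEM39B, the zinc finger genes ZNF431 and ZNF440, and NOTCH2NL. Counts were equal in 10 of the 17, higher with GPATCH8-ADAR in 3 and higher with ADAR-SUGP1 in 4. The shared genes held 29 of the 141 3′ UTR sites with GPATCH8-ADAR (20.6%) and 25 of the 211 with ADAR-SUGP1 (11.8%).

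**Figure D2:**
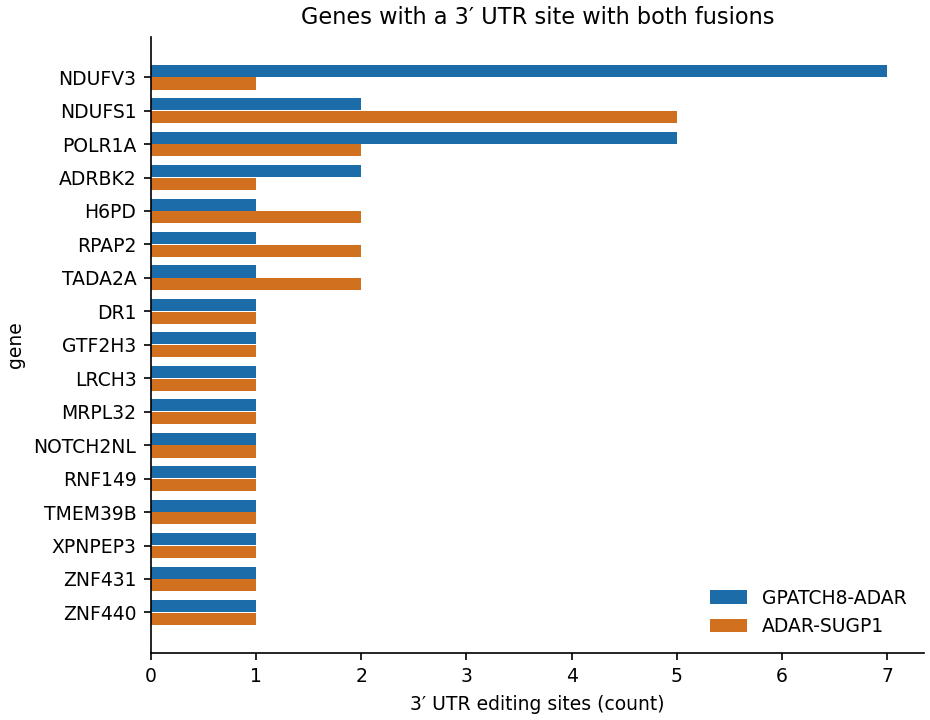
Number of 3′ UTR editing sites (horizontal axis, count) in each of the 17 genes that had one with both fusions (vertical axis), with GPATCH8-ADAR in blue and ADAR-SUGP1 in orange; there is 1 deposited count per bar and no error. NDUFV3 and POLR1A have more with GPATCH8-ADAR (7 and 1, 5 and 2), NDUFS1 has more with ADAR-SUGP1 (2 and 5), and 10 genes have 1 site with each.

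Genes with a 3′ UTR site with 1 fusion were sometimes listed for the other through a different region. With the 17 shared genes set aside, 7 GPATCH8-ADAR genes and 8 ADAR-SUGP1 genes were of this kind. An intronic site with the other fusion was found in 13 of these 15, 6 of the 7 and 7 of the 8. Introns were the most frequent region in both lists, with 370 of all 498 GPATCH8-ADAR genes and 628 of all 995 ADAR-SUGP1 genes. The 13 of 15 is therefore not read as a trait of these genes. PCF11, a subunit of the complex that cleaves and polyadenylates pre-mRNA, had 1 site in the 3′ UTR with GPATCH8-ADAR and 1 in an intron with ADAR-SUGP1, both on ENST00000298281.4. GAA had 2 sites in the 3′ UTR and, with ADAR-SUGP1, 1 in an intron of the same transcript. GPALPP1 and NUDCD3, a dynein co-chaperone, followed the same pattern with 1 site and 1 site. RP11-192H23.4 had 4 sites in the 3′ UTR with GPATCH8-ADAR and 2 intronic sites with ADAR-SUGP1 on different transcripts. The lipase gene PNPLA3 had 1 and 1 on different transcripts, and TUBGCP2, a gamma-tubulin complex protein, had 1 coding site with ADAR-SUGP1.

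In the opposite direction, SLC25A16, a mitochondrial carrier, had 1 site in the 3′ UTR and 3 in introns with ADAR-SUGP1 and 2 in introns of the same transcript with GPATCH8-ADAR. SPC24, a kinetochore subunit, had 1 in the 3′ UTR with ADAR-SUGP1 and 2 intronic sites with GPATCH8-ADAR. SETDB1, a histone H3 lysine methyltransferase, the DNA polymerase gene POLM, the p97 cofactor gene NPLOC4, the Golgi adaptor gene GGA2 and the F-box gene FBXL12 had 1 in the 3′ UTR and 1 intronic site with the other fusion. RABL5 (current symbol IFT22), a small GTPase of intraflagellar transport, had 1 site in the promoter region with GPATCH8-ADAR. In 7 of the 15 genes the transcript with the 3′ UTR site also carried a site of the other fusion. In the others, with SPC24, SETDB1, POLM, NPLOC4 and FBXL12 among them, the fusions' sites were counted on different transcripts. Whether the region differed there only because the transcripts differ cannot be told without positions.

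Sites elsewhere in the transcript body were counted for the genes edited in their 3′ UTR. The transcript body here means the 5′ UTR, coding sequence, 3′ UTR and introns. With GPATCH8-ADAR, 96 of 101 genes had body sites in the 3′ UTR alone (95.0%, 88.8 to 98.4), and with ADAR-SUGP1 166 of 177 (93.8%, 89.2 to 96.9). Most of these genes had 1 site and could show 1 region only, so genes with at least 2 body sites are the ones to read. Of these, 22 of 27 with a 3′ UTR site had no other region in the GPATCH8-ADAR list (81.5%, 61.9 to 93.7), as did 27 of 38 in the ADAR-SUGP1 list (71.1%, 54.1 to 84.6). For genes with an intronic site these shares were higher, 93.5% of 123 (87.6 to 97.2) and 81.6% of 158 (74.7 to 87.3), with overlapping intervals. Introns take up far more of most genes than exons do, and region lengths were not available to weigh these shares.

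**Figure D3:**
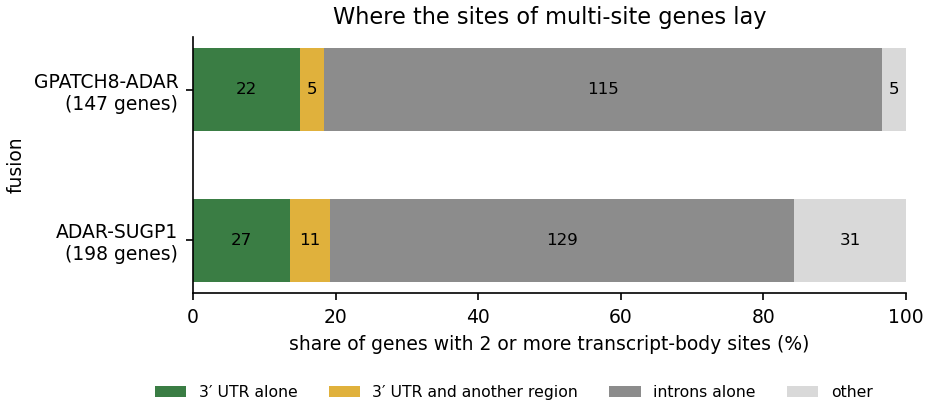
Share of protein-coding genes with at least 2 transcript-body sites (horizontal axis, %) whose sites lay in the 3′ UTR alone, in the 3′ UTR and another region, in introns alone or elsewhere, for GPATCH8-ADAR (147 genes) and ADAR-SUGP1 (198 genes); numbers in the bars are genes. The 3′ UTR-alone class holds 22 and 27 genes, and the mixed class 5 and 11.

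The genes with sites in the 3′ UTR and in introns were few. With GPATCH8-ADAR they were TTF2 (3 in the 3′ UTR and 3 intronic), SMPD4 (2 and 3), GART (2 and 2), LIN52, a subunit of the DREAM complex (1 and 3), and LARS (current symbol LARS1), the cytosolic leucyl-tRNA synthetase (1 and 1). In SMPD4 and GART the intronic sites were counted on another transcript than the 3′ UTR sites. With ADAR-SUGP1 they numbered 10. RPL31, of the large ribosomal subunit, had 1 site in the 3′ UTR and 6 in introns over 5 listed transcripts, NDUFV3 had 1 and 4, and SLC25A16 1 and 3. DBF4B, an activator of the CDC7 kinase, HUS1, a subunit of the 9-1-1 checkpoint clamp, the chaperone gene HSPA4L, the deubiquitinase gene OTUD4, the nucleolar protein gene RBM28, GGA2 and TM2D3 had 1 and 1.

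Few of these genes had a coding or 5′ UTR site as well, and most had 1 body site and could not show a second region. With GPATCH8-ADAR, 0 of 101 genes had a coding site or a 5′ UTR site. The limit of 3 counts is 2.97% for each, and the exact upper bound is 3.59%. That bound takes in the shares over all 498 listed genes, 3.01% and 1.81%. With ADAR-SUGP1, FAM160B2 (current symbol FHIP2B) was the 1 gene of 177 with a coding site (0.565%, 0.0143 to 3.11), and 0 had a 5′ UTR site, which allows up to 1.69%. Over all 995 listed genes these shares were 12.9% and 5.73%. PLEKHG4, a guanine nucleotide exchange factor, was the 1 gene with a site in the promoter region.

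Stop-codon sites were found in 8 of 101 genes with a 3′ UTR site with GPATCH8-ADAR (7.92%, 3.48 to 15.0) and in 36 of 177 with ADAR-SUGP1 (20.3%, 14.7 to 27.0). The tables count this region apart from the transcript body and do not give its extent, so a site near the stop codon may be counted in it and in the 3′ UTR as well. In genes with body sites but none in the 3′ UTR, the shares were 2.85% of 386 and 12.6% of 783. Those of genes with intronic sites alone were 1.66% of 362 (0.611 to 3.57) and 8.68% of 599 (6.55 to 11.2), and those of genes with a coding site 26.7% of 15 (7.79 to 55.1) and 33.9% of 127 (25.7 to 42.8). Genes with a 3′ UTR site therefore lay between intron-only and coding-site genes with both fusions, and each class had a higher share with ADAR-SUGP1. Among genes with at least 2 sites in the 3′ UTR the higher share with ADAR-SUGP1 was not seen. The counts were nearly equal there, 5 of 25 genes for GPATCH8-ADAR (20.0%, 6.83 to 40.7) and 5 of 27 for ADAR-SUGP1 (18.5%, 6.30 to 38.1). Over all genes of the 3′ UTR class the counting intervals of the fusions overlap between 14.7 and 15.0.

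The number of listed transcripts moved with this result. Several transcripts were listed for 18 of the 101 GPATCH8-ADAR genes (17.8%) and for 50 of the 177 ADAR-SUGP1 genes (28.2%), beside 6.30% of 397 and 17.7% of 818 genes without a 3′ UTR site. Among genes with 1 listed transcript the stop-codon share was 3.61% of 83 (0.752 to 10.2) and 10.2% of 127 (5.56 to 16.9), so the difference had the same direction and the intervals overlapped. In intron-only genes with 1 listed transcript it was 0 of 350, which allows up to 0.857% (exact upper bound 1.05%), and 1.13% of 533 (0.414 to 2.43). In such genes with a coding site it was 0 of 8, which allows up to 37.5%, and 10 of 77 (6.41 to 22.6%), so the place of the 3′ UTR class between the others was not seen for GPATCH8-ADAR. The part of transcript number in the result was not tested.

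The stop-codon genes of GPATCH8-ADAR were CASP8 and PLA2G6 with 2 sites in each region, GART likewise, GAA and the zinc finger gene ZNF587B with 2 in the 3′ UTR and 1 at the stop codon, and MRPL32, KHDC1 and TUBGCP2 with 1 and 1. In CASP8 the stop-codon sites were counted on ENST00000392263.2 and the 3′ UTR sites on ENST00000264274.9, and in the other 7 both lay on 1 transcript. Of the ADAR-SUGP1 genes, SREBF1 and TNK2, a cytoplasmic tyrosine kinase, had 2 sites in each region. DDX5, NMNAT1 and RPL15 had 2 in the 3′ UTR and 1 at the stop codon. ATP2B4, a plasma membrane calcium pump, CFLAR, an inhibitor of CASP8, and ASB16 had 1 and 1. Both regions were counted on 1 transcript in 26 of the 36 and on different transcripts in 10, SREBF1 among the latter. MRPL32 had 1 site in each region with both fusions.

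**Figure D4:**
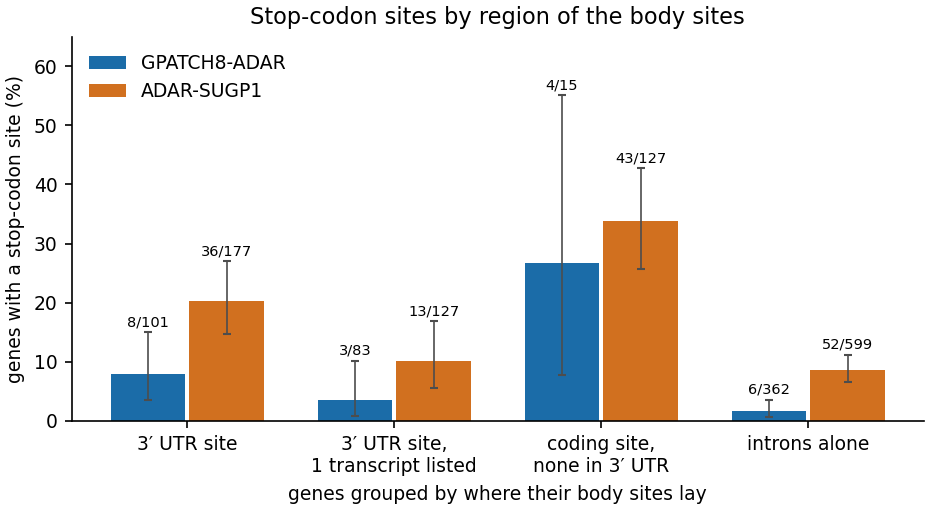
Share of genes with a stop-codon site (vertical axis, %) for genes with a 3′ UTR site, for those of them with 1 listed transcript, for genes with a coding site and none in the 3′ UTR, and for genes with intronic sites alone (horizontal axis), with GPATCH8-ADAR in blue and ADAR-SUGP1 in orange. Error bars are 95% exact binomial intervals and labels are genes of genes; genes with a 3′ UTR site stand at 7.92% and 20.3%, between intron-only genes and coding-site genes.

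Which kinds of genes carried the 3′ UTR sites was read from 14 lists set by gene symbol, as the share of each list's edited genes that had a 3′ UTR site. The background over all listed protein-coding genes is 20.3% for GPATCH8-ADAR and 17.8% for ADAR-SUGP1, with a median of 1 site in the genes that had any. Zinc finger genes, mostly DNA-binding regulators of transcription, stood at 8 of 22 with GPATCH8-ADAR (36.4%, 17.2 to 59.3) and 10 of 29 with ADAR-SUGP1 (34.5%, 17.9 to 54.3), with a median of 1 site in each. Beside ZNF431 and ZNF440, these were ZNF789 with 3 sites, ZNF587B and ZNF790 with 2, and ZNF101, ZNF611 and ZNF639 with 1 for GPATCH8-ADAR. For ADAR-SUGP1 they were ZNF527 with 2 and ZBTB37, ZBTB42, ZNF557, ZNF641, ZNF771, ZNF776 and ZNF850 with 1. The interval takes in the background with GPATCH8-ADAR, and with ADAR-SUGP1 its lower bound, 17.9%, lies just above 17.8%. Among genes with 1 listed transcript the zinc finger shares were 26.3% of 19 (9.15 to 51.2) and 27.3% of 22 (10.7 to 50.2), against 18.2% and 15.9% over all such genes, and these intervals take in the background. Genes of this family are similar in sequence, and how the authors handled reads that fit several of them is not given in the sources used here.

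Subunits of the respiratory chain and ATP synthase had a 3′ UTR site in 3 of 6 edited genes with GPATCH8-ADAR (50.0%, 11.8 to 88.2) and 3 of 11 with ADAR-SUGP1 (27.3%, 6.02 to 61.0). Beside NDUFV3 and NDUFS1 these were CYCS, cytochrome c, with 1 site with GPATCH8-ADAR, and NDUFC2, a membrane subunit of complex I, with 1 with ADAR-SUGP1. The median was 2 sites in the former set and 1 in the latter. Of the mitochondrial ribosome, MRPL32 was the 1 gene of 4 with GPATCH8-ADAR, and MRPL27 and MRPL32 were 2 of 8 with ADAR-SUGP1. Genes with TMEM symbols had a site in 4 of 4 (TMEM120B, TMEM161A, TMEM192, TMEM39B; 95% exact interval 39.8 to 100.0%) and in 3 of 13 (TMEM138, TMEM179B, TMEM39B; 23.1%). Among genes with 1 listed transcript these were 2 of 2 (15.8 to 100.0%) and 0 of 6, which allows up to 50.0%. Solute carriers numbered 2 of 6 (SLC33A1, an acetyl-CoA transporter, and SLC35E2) and 4 of 18 (SLC35E4 with 2 sites, SLC25A16, the inositol transporter gene SLC2A13 and SLC35E2B). SLC35E2 and SLC35E2B are near-identical copies, as are members of the NOTCH2NL, NBPF9, POLR2J3 and GTF2H2C families, and the gene assignment of their sites is uncertain.

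Splicing factors, which the study's proteins are known for, had a 3′ UTR site in 1 of 16 edited genes with GPATCH8-ADAR (6.25%, 0.158 to 30.2), the SR protein gene SRSF3 with 1 site. With ADAR-SUGP1 it was 3 of 23 (95% exact interval 2.78 to 33.6%), the SR protein genes SRSF2 and SRSF5 and RBM28, with 1 site each. The symbol pattern took in RBM28, a nucleolar protein gene, and left out other RNA processing genes with 3′ UTR sites. Among those were SMU1 with GPATCH8-ADAR and QKI and DDX5 with ADAR-SUGP1. Ubiquitin and proteasome genes numbered 1 of 15 (RNF149) and 2 of 26 (RNF149 and FBXL12). Ribosomal proteins and translation factors numbered 2 of 14 (EIF4H and RPL37A) and 5 of 36 (RPL15 with 2 sites, RPL31 and RPL37 with 1, and the eIF2-alpha kinases EIF2AK2 and EIF2AK4 with 1, which the symbol pattern took in). Genes named by open reading frame, family or coiled coil numbered 3 of 21 and 8 of 48. Membrane traffic genes were 0 of 5 for GPATCH8-ADAR, which allows up to 60.0%, and 5 of 20 for ADAR-SUGP1 (RAB2B, a Golgi GTPase, with 2 sites, and, among the others, AP5B1, TMED4 and VPS26B with 1).

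On 3 lists no edited gene had a 3′ UTR site with either fusion. These were nucleoporins (0 of 6 with each), chromatin regulators (0 of 4 and 0 of 8) and replication and cell cycle genes (0 of 5 and 0 of 19). The longest of these, 0 of 19, allows a share of up to 15.8% (exact upper bound 17.6%), beside a background of 17.8%. Among genes with 1 listed transcript that list had 0 of 16. The exact upper bound there, 20.6%, takes in the 15.9% over all such genes. By the limit of 3 counts the other lists allow 37.5% or more. The lists are not complete: SETDB1, with a 3′ UTR site, is a chromatin regulator outside the list. DBF4B, HUS1 and SPC24, described above, had a 3′ UTR site with ADAR-SUGP1 and are outside the replication and cell cycle list. The 0 therefore holds for the listed symbols and not for such genes at large. Of genes known for endogenous editing of repeats in the 3′ UTR, MDM4, a regulator of p53, had 1 site and NDUFS1 2 with GPATCH8-ADAR, and EIF2AK2, the double-stranded RNA-activated kinase PKR, had 1 and NDUFS1 5 with ADAR-SUGP1. These were 2 of 2 listed genes with each fusion (exact interval 15.8 to 100.0%). The list was drawn from genes known for editing in this region and was set with earlier results of these data known. The 2 of 2 is therefore not read as a result about the fusions. Whether sites lay in Alu repeats cannot be read from the tables.

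**Figure D5:**
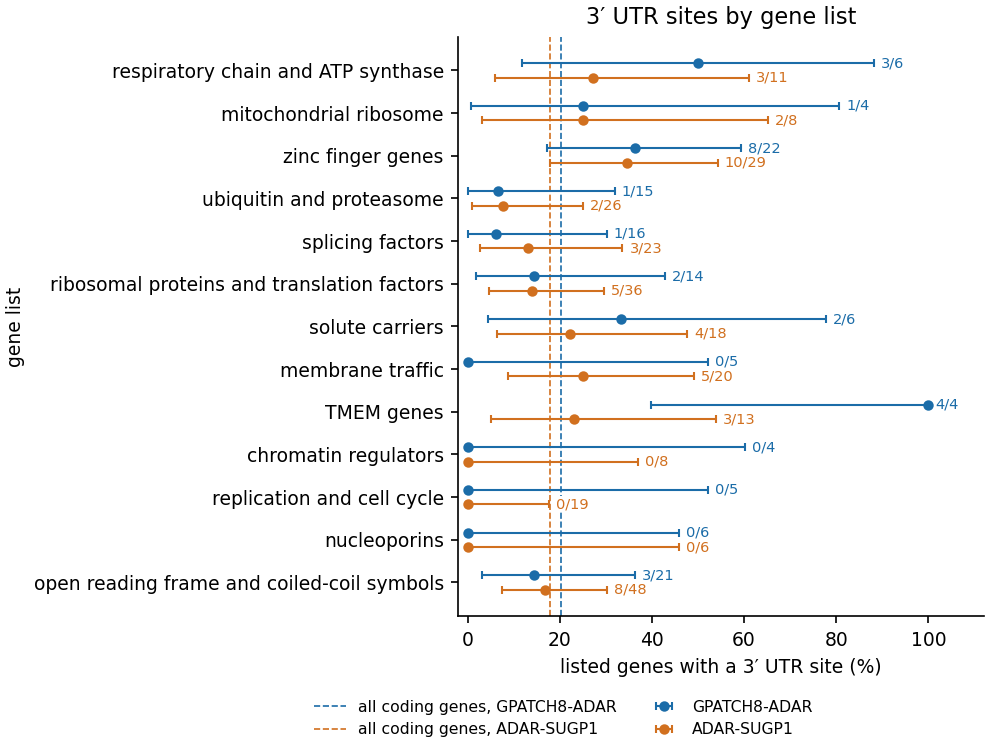
Share of listed genes with a 3′ UTR site (horizontal axis, %) in 13 gene lists with at least 4 listed genes per fusion (vertical axis), with GPATCH8-ADAR in blue and ADAR-SUGP1 in orange; error bars are 95% exact binomial intervals, labels are genes with a site of genes listed, and dashed lines mark 20.3% and 17.8% of all listed protein-coding genes. Zinc finger genes stand at 36.4% and 34.5%, and nucleoporins, chromatin regulators and replication genes at 0.

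Other roles recurred among the 261 genes. The following groups were put together after the genes were seen, so their sizes have no background. Genes of the RNA polymerases, of general transcription factors and of their regulators and cofactors numbered 11. They were 9 with GPATCH8-ADAR, 7 with ADAR-SUGP1 and 5 with both. Beside POLR1A, TTF2, RPAP2, DR1, GTF2H3 and TADA2A, they were POLR2J3, of the RNA polymerase II subunit J family, with 2 sites, the TFIIH-related GTF2H2C and the TFIID subunit gene TAF8 with 1 each with GPATCH8-ADAR, and the Mediator genes MED24 and MED28 with 1 each with ADAR-SUGP1. Together they held 16 and 10 3′ UTR sites.

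Genes of cell death and innate immune signalling numbered 2 with GPATCH8-ADAR, CASP8 with 2 sites and the cytidine deaminase gene APOBEC3C with 1. With ADAR-SUGP1 they were 5, DFFA with 2 sites and CFLAR, PDCD5, EIF2AK2 and IRAK4, a kinase of Toll-like receptor signalling, with 1. Transfer RNA genes were LARS and DTWD2 with GPATCH8-ADAR, and ADAT1, itself an adenosine deaminase of tRNA, METTL2B, METTL8 and TRMU with ADAR-SUGP1, the last 2 with 2 sites. Peroxisome and lipid genes numbered 5 with GPATCH8-ADAR (PEX26 with 4 sites, PLA2G6 and SMPD4 with 2, PEX13 and PNPLA3 with 1) and 3 with ADAR-SUGP1 (SREBF1 with 2, and SOAT1, which esterifies cholesterol, and FAR2 with 1).

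Glycosylation and GPI anchor genes were UGGT1, the glucosyltransferase that senses misfolded glycoproteins, and ST3GAL2 with 1 site each with GPATCH8-ADAR, and PGAP3 with 2 sites and GNPNAT1, PIGW and POMGNT1 with 1 with ADAR-SUGP1. DNA damage genes were ATM, the checkpoint kinase, and RIF1 with GPATCH8-ADAR, and ATAD5, HUS1, PIF1, POLM and TOP3B with ADAR-SUGP1, all with 1 site. RNA processing and export genes numbered 4 (PCF11, THOC5 of the THO export complex, SMU1 and SRSF3, with 1 site each) and 5 (DDX5 with 2, LSM14B, QKI, SRSF2 and SRSF5 with 1).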

How the data were processed

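The members, gene lists and alternatives were chosen with earlier results of these data known. Reads were processed with Trimmomatic and STAR on the hg19 build, per the submitters' processing notes; for the site caller, the annotation, the versions and strandedness, the setting is not given in the sources used here. The authors deposited counts of editing sites per Ensembl transcript and region, merged over the 2 replicates of a fusion. The totals of reads per library are unknown.

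Of 612 and 1340 transcript rows, the 544 and 1216 protein-coding ones were summed by gene symbol; 572 blank rows were skipped. The sum would count a site again if it had been assigned to several transcripts. Shares have exact Clopper-Pearson 95% intervals (scipy 1.17.1), and a count of 0 is given the limit of 3 counts. That limit can lie below or above the exact upper bound. No test was run, since each fusion has 1 list. The sums were tested on simulated data. RefSeq held 239 of the 261 gene names as symbols and 18 as a synonym of 1 symbol, and 4 had no match (table of assembly GRCh38.p14, used for names and gene order).

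Named genes were those with 3 or more 3′ UTR sites, those with sites with both fusions, up to 8 per direction with a 3′ UTR site with 1 fusion and listed for the other, up to 8 per fusion with stop-codon or coding sites, and up to 4 per list. Genes with 2 sites, those of the role groups, further members of lists and genes with both 3′ UTR and intronic sites were named after their values were seen. Some genes are counted but not reported by name here.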

Additional observations from a re-analysis of the deposited data

How the results depend on the processing

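Of 16 values per alternative, all kept within 1.5 times, their interval or 1 SD when the largest transcript count replaced the sum, when transcripts of every type, genes with body sites alone or names in the RefSeq table alone were used, and, chosen after seeing the data, without NDUFV3. Several of these alternatives could hardly change the member counts, so their stability says little. All 102 and 177 transcripts with a 3′ UTR site were protein-coding, and every member has a body site by definition. TMEM120B alone had 3′ UTR sites on several transcripts. With at least 2 sites required, 25 genes remained with GPATCH8-ADAR (5.02% of listed genes, 65 sites, mean 2.60) and 27 with ADAR-SUGP1 (2.71%, 61 sites, mean 2.26), 50 in either and 2 in both (8.0% of the GPATCH8-ADAR genes). The stop-codon shares were then 20.0% with GPATCH8-ADAR and 18.5% with ADAR-SUGP1, without the higher ADAR-SUGP1 share seen over all members. The intronic shares were 12% and, with ADAR-SUGP1, 0.0%. Among genes with 1 listed transcript, the ADAR-SUGP1 shares were 10.2% for the stop codon and 1.57% for introns. By their construction both alternatives keep fewer genes. Of the 28 list counts, 20 moved by over 1.5 times with at least 2 sites and 10 with 1 listed transcript; zinc finger genes went to 3 and 1 and to 5 and 6. No paired analysis was possible because the replicates of a fusion are merged in the deposited counts, and for the same reason no replicate could be left out.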

Other observations

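Some genes with 3′ UTR sites are neighbours in the order of protein-coding genes. Of the 257 genes that could be placed, 6 pairs were adjacent. Adjacent pairs among all listed genes were not counted, so the 6 have no background and are not read as a trait of these genes. LRRC57 and HAUS2 on chromosome 15 and ZBTB42 and CEP170B on chromosome 14 were pairs in which both genes had a site with ADAR-SUGP1. In the other 4 pairs each gene had its site with a different fusion. They were CYB561A3 (GPATCH8-ADAR) with TMEM138 (ADAR-SUGP1) on chromosome 11, LIN52 (GPATCH8-ADAR) with ALDH6A1 (ADAR-SUGP1) on chromosome 14, ZNF790 (GPATCH8-ADAR) with ZNF850 (ADAR-SUGP1) on chromosome 19, and SLC33A1 (GPATCH8-ADAR) with C3orf33 (ADAR-SUGP1) on chromosome 3. Whether a site in one of these genes lies in an overlapping end of its neighbour cannot be told without positions and strand.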
